A study of Mus musculus with 63 samples.

Results

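The genes described here are 40 genes of DNA replication and of the G1/S transition, taken by symbol from the count tables and present in all of them, out of 54752 genes listed. By role they comprise 8 genes of replication origin licensing, 6 of helicase activation, 5 of the sliding clamp and its loader, 6 of the replicative polymerases and primase and 2 of Okazaki fragment maturation. The others are 5 genes of nucleotide supply, 4 encoding E-type cyclins and E2F factors and 4 of chromatin replication. All 40 passed the filter on low counts in every fit, so no gene is missing from any comparison.

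Before a cell enters S phase, the MCM helicase is loaded at origins by CDC6 and CDT1 and is then switched on by CDC45 and the GINS complex. E2F factors, released when cyclin-dependent kinases phosphorylate the retinoblastoma proteins, drive transcription of most of these genes, and cyclin E is both a product and a promoter of that step. In the small intestine such genes are read mainly in the dividing cells of the crypt, the stem cells and transit-amplifying progenitors, and fall silent as cells differentiate.

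The series asks what loss of CDK8 and CDK19, the paralogous kinases of the Mediator complex, does to intestinal epithelium. RNA was sequenced from mouse small intestinal organoids, crypt-derived cultures that grow in Matrigel, and from small intestinal epithelial cells (IECs), and 57 libraries in 19 groups of 3 were analysed. Their totals ran from 15485959 to 32909565 counts. All mice had the strain label C57BL/6.

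At 7 days after a 24 h treatment with 100 nM 4-hydroxytamoxifen (4-OHT), 5 organoid groups were collected, all of them treated. They were VillinCreERT2, which carries only the tamoxifen-inducible recombinase under an intestinal epithelial promoter; C57BL/6, which carries no Cre; VillinCreERT2/Cdk8 fl/fl, hereafter CDK8iIEC-KO; Cdk8 fl/fl/Cdk19-/-, which lacks Cre; and VillinCreERT2/Cdk8 fl/fl/Cdk19-/-, hereafter CDK8iIEC-KO/Cdk19-/-. A time course followed VillinCreERT2/Cdk8 fl/fl/Cdk19-/- organoids for 3, 5, 7 and 10 days after 4-OHT or after 0.001% EtOH as the vehicle, and both arms carry the Cdk19-/- label. The same genotype was sampled at 10 days with EtOH or 4-OHT in Wnt3-conditioned medium (Wnt3-CM). VillinCreERT2/Cdk8 fl/fl/Cdk19 D173A/- organoids, whose remaining CDK19 is kinase dead, were sampled at 7 days with EtOH or 4-OHT. IECs came from VillinCreERT2 and from CDK8iIEC-KO/Cdk19-/- mice 14 days after the last of 5 daily injections of tamoxifen at 80 mg/kg. Within each table, column names give each organoid genotype 1 line number, so differences between genotypes are differences between single lines, and each IEC library has a number of its own. The CDK8iIEC-KO/Cdk19-/- line of the 5-line table and the line of the time course and of Wnt3-CM have the same genotype but different numbers. The labels do not say whether the 3 libraries of a group are separate cultures or animals, and p-values therefore measure only the spread between these libraries. No group of VillinCreERT2 organoids with EtOH was analysed here. In comparisons of 4-OHT with EtOH, loss of CDK8 therefore cannot be told apart from effects of Cre activation or of 4-OHT.

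Epithelial markers were present in every group. Summed immune markers stayed between 2.48 and 17.2 CPM, the depth-scaled count, in all organoid groups, and between 181 and 2290 CPM in IECs. Whole-gene Cdk8 counts did not fall in step with the labels: between groups with and without Cdk8 deletion the log2 fold change ran from -0.19 with combined loss (adjusted p = 0.0131) to 0.14 in Wnt3-CM (adjusted p = 0.162). Whole-gene Cdk19 counts did not follow the labels either. Cdk19 read 24.4 to 26.2 CPM in Cdk8 fl/fl/Cdk19-/- and 28.4 to 35.1 CPM in C57BL/6 (log2 fold change -0.28, adjusted p = 0.00994), but 27.3 to 27.7 CPM in CDK8iIEC-KO/Cdk19-/- and 26.7 to 28.8 CPM in VillinCreERT2 (-0.02, adjusted p = 0.862). In the time course it read 34.9 to 66 CPM and was higher with 4-OHT at day 3 (0.35, adjusted p = 8.01e-05), and in IECs it differed by -0.21 (adjusted p = 0.407). Counts were not split by exon, so neither deletion was checked here, and loss, null and kinase dead are used as the labels give them. Genes are called changed below when edgeR's quasi-likelihood test gave a Benjamini-Hochberg adjusted p under 0.05 over all genes tested and the fold change was over 1.5. All adjusted p-values are from that test, and errors of log2 fold changes are standard errors.

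Per kilobase of annotated exon, Pcna, the sliding clamp, was the most abundant of the genes in EtOH-treated organoids at day 7, at 52.1 CPM per kb ± 2.1 (SD, n = 3). Gins3, a GINS subunit, was the least abundant at 1.48 CPM per kb ± 0.0971. In IECs Pcna stood at 20.7 CPM per kb ± 0.5. Levels of organoids and IECs come from tables scaled separately and are set side by side only.

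To follow single genes through all comparisons, 5 were used, 1 each for helicase, clamp, nucleotide supply, cyclin E and E2F. On GRCm38 they are Mcm2 (ENSMUSG00000002870.8, chr6:88883474-88898780, minus strand), Pcna (ENSMUSG00000027342.14, chr2:132249162-132253314, minus strand), Rrm2 (ENSMUSG00000020649.11, chr12:24708241-24714146, plus strand), Ccne1 (ENSMUSG00000002068.16, chr7:38097984-38107534, minus strand) and E2f1 (ENSMUSG00000027490.17, chr2:154559407-154569892, minus strand). All 5 are annotated as protein coding, and counts are over their exons.

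To determine when the genes changed after Cdk8 deletion was induced in a line labelled Cdk19-/-, 4-OHT was compared with EtOH at each day. Only the 4-OHT arm had Cre activated, so loss of CDK8 cannot be told apart here from effects of Cre or of 4-OHT. At day 3 values were slightly higher with 4-OHT, most of the 40 genes fell at days 5 and 7, and fewer were lower at day 10. The median log2 fold change over the 40 genes was 0.31 at day 3, -0.64 at day 5, -0.91 at day 7 and -0.47 at day 10, while the median over all 15447 genes tested stayed between -0.02 and 0.02. In bulk RNA, fewer dividing cells and less of each transcript per cell cannot be told apart.

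**Figure D1:**
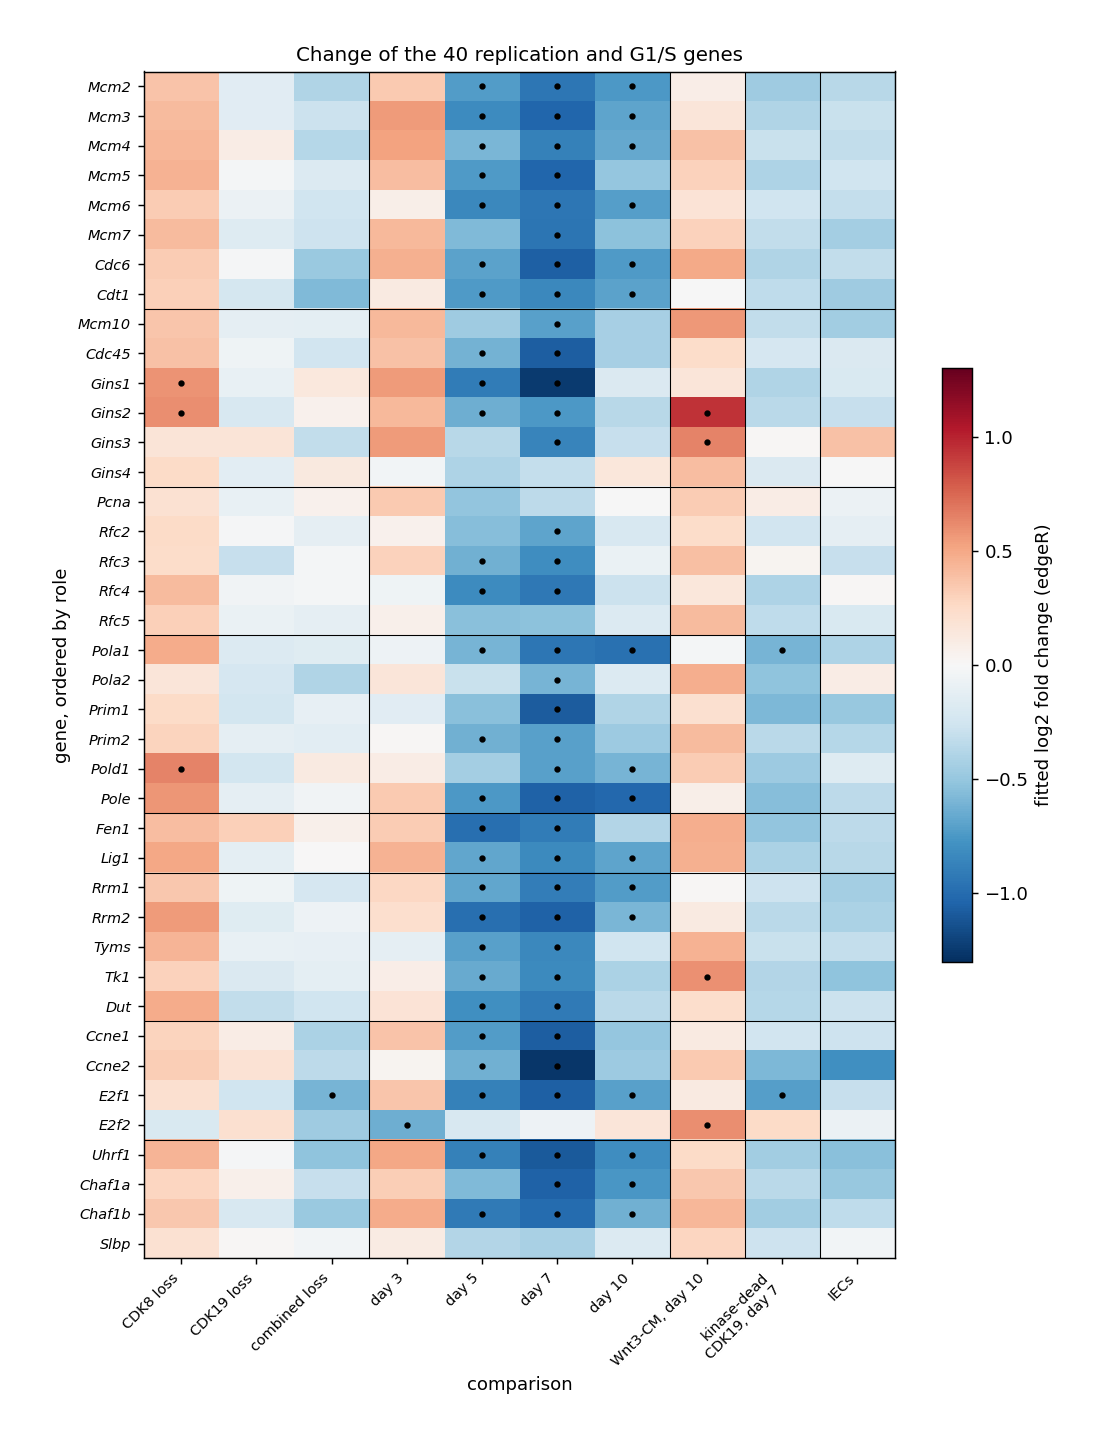
Fitted log2 fold changes of the 40 genes (rows, grouped by role, lines between roles) in 10 comparisons (columns): single and combined loss against control lines 7 days after 4-OHT, 4-OHT against EtOH at days 3 to 10, in Wnt3-CM and with kinase-dead CDK19, and CDK8iIEC-KO/Cdk19-/- against VillinCreERT2 IECs. Red is higher, blue is lower and dots mark genes past both cutoffs; the dots fill the columns of days 5 and 7 (27 and 35 of 40) and are absent from that of IECs.

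At day 3, none of the 40 genes was called higher and 1 was called lower, where 5.95% of all genes were called lower. By adjusted p alone, 18 genes were higher, against 15.5% of all genes. Cell type markers moved at day 3 as well: enterocyte markers summed to 2750 to 3260 CPM with 4-OHT and 6420 to 7000 CPM with EtOH (8 of 10 called lower), stem cell markers to 3170 to 3270 against 2540 to 2560 CPM and immune markers to 14.2 to 17.2 against 6.7 to 7.34 CPM. Their part in the values of the 40 genes was not tested. Mcm3, a helicase subunit and the gene with the highest log2 fold change, read 146, 128 and 129 CPM with 4-OHT and 90.6, 90.4 and 93.3 CPM with EtOH, a log2 fold change of 0.56 ± 0.14 (adjusted p = 0.00404). Its arms did not overlap. Of the licensing genes 6 of 8 passed the adjusted p threshold upward, of helicase activation 4 of 6, of chromatin replication 3 of 4 and of nucleotide supply none. The gene called lower was E2f2, an activator E2F. It read 55.1, 53.4 and 58.2 CPM with 4-OHT and 90.1, 79.9 and 88.2 CPM with EtOH, without overlap (log2 fold change -0.63 ± 0.10, adjusted p = 8.21e-06). E2f2 was also the one gene whose lowest change fell on day 3. With single libraries left out 1 to 3 genes were called at day 3, with 3 called without 4-OHT replicate 3 or EtOH replicate 2, and 2 without 4-OHT replicate 2 or EtOH replicate 1 or 3.

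By day 5, 27 of the 40 genes were called lower and none higher, against 4.62% of all genes called lower. Summed Paneth cell markers were 2620 to 2980 CPM with 4-OHT and 5090 to 6240 CPM with EtOH (8 of 8 called lower), and stem cell markers 1500 to 1700 against 2220 to 2940 CPM (4 of 10 lower), and their part was not tested. Fen1, the flap endonuclease that trims Okazaki fragments, read 1.98, 2.73 and 2.96 CPM with 4-OHT and 3.84, 5.97 and 5.25 CPM with EtOH (log2 fold change -0.98 ± 0.21, adjusted p = 0.000524). Rrm2, the regulated subunit of ribonucleotide reductase, read 31.0, 33.8 and 49.4 CPM with 4-OHT against 73.8, 65.7 and 85.2 CPM with EtOH (-0.98 ± 0.18, adjusted p = 0.0004). Chaf1b, a subunit of the CAF-1 histone chaperone, read 18.8, 18.0 and 21.4 CPM against 35.7, 30.4 and 44.2 CPM (-0.92 ± 0.15, adjusted p = 4.06e-05). In all 3 genes every 4-OHT library lay below every EtOH library. All 5 nucleotide supply genes and 7 of 8 licensing genes fell, as did 3 of 6 helicase activation genes and 2 of 5 clamp and clamp loader genes. The count depended on single libraries: it was 17 without EtOH replicate 3 and 33 without 4-OHT replicate 3.

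Between days 3 and 5 the response itself changed. The difference between the changes at the 2 days was called for 33 genes, all toward lower values at day 5, against 9.01% of all genes. The difference was -1.24 on the log2 scale for E2f1, -1.19 for Rrm2, -1.10 for Ccne1, -1.07 for Mcm2 and -0.85 for Pcna. Both terms were measured against the EtOH libraries of the same day. In the same contrast 8 of 10 stem cell and 8 of 8 Paneth cell markers were called lower and 7 of 10 enterocyte markers higher, and their part was not tested.

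At day 7, 35 of the 40 genes were called lower, against 9.25% of all genes, and all 40 had a negative log2 fold change. Ccne2, an E-type cyclin, read 5.18, 4.94 and 7.32 CPM with 4-OHT and 12.7, 13.3 and 15.8 CPM with EtOH (log2 fold change -1.26 ± 0.19, adjusted p = 3.69e-06). Gins1, a GINS subunit, read 1.89, 2.63 and 3.18 CPM against 5.19, 5.99 and 7.16 CPM (-1.25 ± 0.20, adjusted p = 5.23e-06). Uhrf1, which brings the maintenance DNA methyltransferase to replicated chromatin, read 34.6, 40.4 and 57.5 CPM against 90.0, 90.6 and 101 CPM (-1.09 ± 0.14, adjusted p = 1.39e-06). Each of these genes was separated between the arms, with the third 4-OHT library nearest to EtOH each time. That library stood apart over the whole set: the mean log2 CPM of the 40 genes was 4.28 and 4.45 in the other 4-OHT libraries and 4.85 in it. Summed mesenchyme markers were 47.8 CPM in the second EtOH library at day 7 and 5.54 and 5.95 CPM in the others. Without both of these libraries, a choice made after the data were seen, 36 genes were called lower (median over the 40, -1.15).

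By role at day 7, all 8 licensing genes (median log2 fold change -0.95), all 6 polymerase and primase genes (-0.83), all 5 nucleotide supply genes (-0.90) and both Okazaki fragment genes (-0.86) fell. Of the helicase activation genes 5 of 6 fell, of the E-type cyclins and E2F factors 3 of 4, and of chromatin replication 3 of 4. The clamp and its loader had the median nearest to 0 (-0.68), with 3 of 5 called. The 5 genes not called at any of days 5, 7 and 10 were Gins4, Pcna, Rfc5, E2f2 and Slbp. Slbp, which binds the stem loop of histone mRNAs, had a log2 fold change of -0.42 at day 7, and Gins4 one of -0.31.

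Mcm2 and Pcna show how far members of the same machinery differed. Mcm2 read 49.8, 63.3 and 83.3 CPM with 4-OHT and 126, 118 and 133 CPM with EtOH at day 7 (log2 fold change -0.94 ± 0.13, adjusted p = 4.9e-06). Pcna read 89.5, 92.5 and 114 CPM against 126, 120 and 130 CPM (-0.34 ± 0.08, adjusted p = 0.000599). Pcna was lower in every 4-OHT library but did not reach the fold change cutoff. Rrm2 read 29.9, 32.2 and 52.3 CPM against 77.3, 75.9 and 83.5 CPM, Ccne1 7.06, 6.33 and 9.70 CPM against 17.6, 14.4 and 16.4 CPM, and E2f1 11.6, 11.8 and 19.3 CPM against 30.3, 28.5 and 30.2 CPM. These 3 genes fell by 1.05, 1.07 and 1.06 on the log2 scale.

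**Figure D2:**
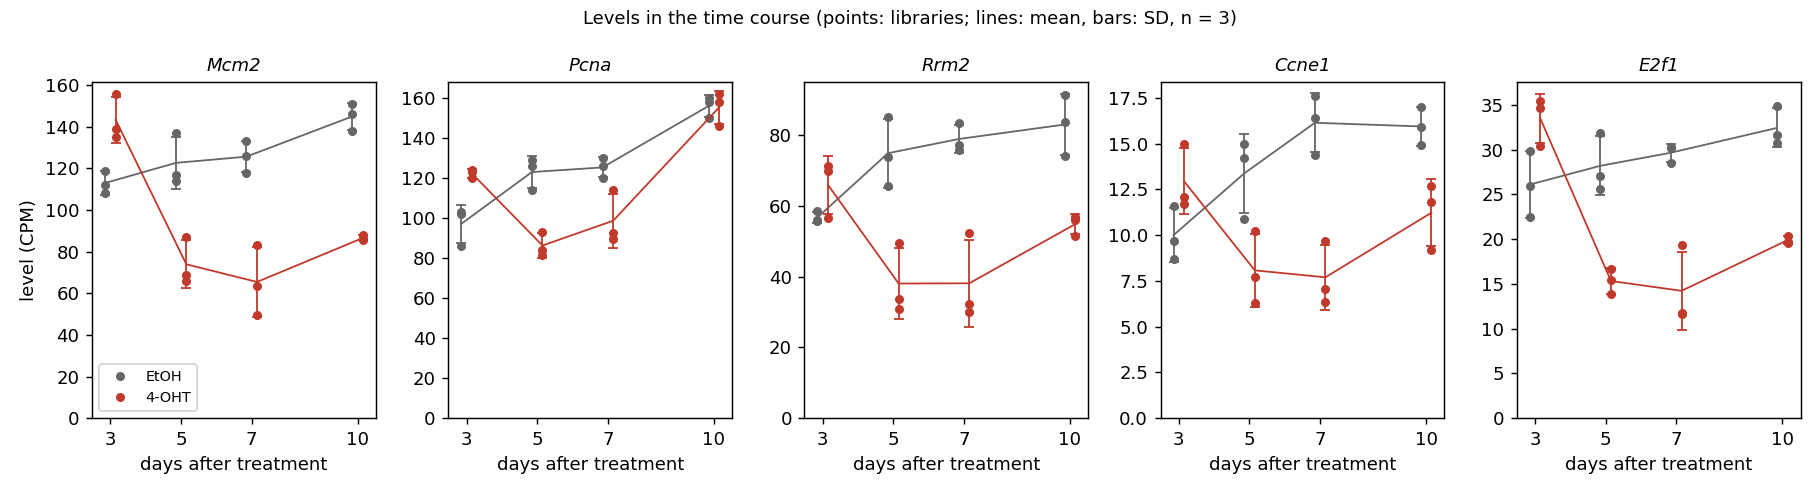
Levels of Mcm2, Pcna, Rrm2, Ccne1 and E2f1 (CPM on TMM-scaled library sizes, each panel from 0) by day after EtOH (gray) or 4-OHT (red) in VillinCreERT2/Cdk8 fl/fl/Cdk19-/- organoids, with 3 libraries per point as dots and mean ± SD as lines and bars. The arms cross between days 3 and 5 in all 5 panels, and by day 10 only Pcna (146 to 162 CPM with 4-OHT, 150 to 160 CPM with EtOH) overlapped between the arms.

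From day 5 to day 7 the difference of the responses passed both cutoffs for 0 of the 40 genes in edgeR, DESeq2 and limma-voom, against 8.81% of all genes in either direction. At an unadjusted p under 0.05, 7 genes differed, a count for which the share of all genes was not taken. The adjusted p threshold alone was passed by 1 gene, against 18.9% of all genes, and 1 passed both cutoffs in edgeR with no filter on low counts. Without the third 4-OHT library of day 7, 6 genes passed both cutoffs, without EtOH replicate 3 of day 5 there were 3, and without 4-OHT replicate 1 of day 5 or EtOH replicate 2 of day 7 there was 1.

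At day 10, 16 of the 40 genes were still called lower, against 6.92% of all genes, and none was higher. Stem cell markers were called lower for 7 of 10, Paneth cell markers lower for 8 of 8 and enterocyte markers higher for 5 of 10, and their part was not tested. Pole, the catalytic subunit of the leading-strand polymerase, read 25.5, 22.0 and 26.8 CPM with 4-OHT and 52.1, 50.4 and 48.1 CPM with EtOH (log2 fold change -1.02 ± 0.12, adjusted p = 9.78e-08). Pola1, the catalytic subunit of polymerase alpha, read 15.5, 18.1 and 19.4 CPM against 33.4, 33.3 and 37.5 CPM (-0.97 ± 0.13, adjusted p = 7.72e-07). Uhrf1 read 51.6, 51.0 and 57 CPM against 94.1, 90.6 and 94.9 CPM (-0.81 ± 0.13, adjusted p = 4.61e-05). The arms of these 3 genes did not overlap. Pola1 was the one gene whose change was lowest at day 10, whereas for 34 of the 40 genes it was lowest at day 7.

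Of the licensing genes, 6 of 8 remained called (Mcm2, Mcm3, Mcm4, Mcm6, Cdc6 and Cdt1) (median log2 fold change -0.69). None of the 6 helicase activation genes and none of the 5 clamp and clamp loader genes was called, with medians of -0.33 and -0.17, although 3 and 1 of them were lower by adjusted p alone. The other roles lay between, with 3 of 6 polymerase and primase genes called, 1 of 2 Okazaki fragment genes, 2 of 5 nucleotide supply genes, 1 of 4 E-type cyclin and E2F genes and 3 of 4 chromatin genes. Roles were not tested against each other. Mcm2 read 85.7, 88.0 and 86.2 CPM with 4-OHT and 138, 146 and 151 CPM with EtOH (-0.74 ± 0.13, adjusted p = 6.67e-05), whereas Pcna read 158, 162 and 146 CPM against 150, 160 and 158 CPM (0.00 ± 0.08, adjusted p = 0.976). The helicase subunit therefore stayed below vehicle in every library, and the clamp overlapped it. E2f1 still fell, with a log2 fold change of -0.70 (adjusted p = 9.02e-05), as did Rrm2 with -0.60 (adjusted p = 0.0105), while Ccne1 stood at -0.50 (adjusted p = 0.0138), short of the fold change cutoff.

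Tested directly, the change at day 10 was higher than at day 7 for 6 genes, against 2.98% of all genes. They were Gins1, by 1.06 ± 0.26 on the log2 scale (adjusted p = 0.00492), Ccne2 (0.79), Rfc3 (0.72) and Rfc4 (0.66), both subunits of the clamp loader, Prim1, the primase subunit (0.69), and Cdc45 (0.63). The third 4-OHT library of day 7 bears on this count, which was 20 without it and 2 without the first, and it was 3 without 4-OHT replicate 3 or EtOH replicate 1 of day 10 or EtOH replicate 3 of day 7. Against day 3, the change at day 10 was lower for 25 genes, against 12.4% of all genes, and higher for E2f2.

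The vehicle arm was not flat. From day 3 to day 10, 16 of the 40 genes rose in EtOH-treated organoids, against 16% of all genes. Fen1 rose by 1.14 ± 0.19 on the log2 scale (adjusted p = 6.67e-06), Gins3 by 1.02 and Gins2 by 0.93. Pcna rose by 0.69 and Ccne1 by 0.67, while Mcm2, Rrm2 and E2f1 had log2 fold changes of 0.36, 0.55 and 0.31. A change of level between days cannot be told apart from differences between libraries made on different days, whereas each response above is within a day.

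Genes of the cell cycle outside the 40 were counted at day 7 too, where 9.25% of all genes were called lower. Of 47 other replication factors, 29 were called lower and 2 higher at day 7 (median log2 fold change -0.66). The largest falls were of Dscc1, a subunit of the alternative clamp loader that acts in cohesion (-1.35), Orc1, the largest subunit of the origin recognition complex (-1.25), and Hells, a chromatin remodeler (-1.17). The 2 that rose were Rrm2b, the p53-regulated subunit of ribonucleotide reductase (0.78), and Pold4, an accessory subunit of polymerase delta (0.64). Of 21 mitosis genes 19 were lower, among them Mki67, the Ki-67 antigen (-1.05). Rrm2b, Pold4 and Mki67 were named after their values were seen. Of 27 other G1/S regulators tested, 7 were lower, with a median of -0.32. Summed stem cell markers were 1070 to 1520 CPM with 4-OHT and 2580 to 3010 CPM with EtOH at day 7, Paneth cell markers 1890 to 2120 against 5020 to 6110 CPM, and enterocyte markers 11100 to 13100 against 8470 to 10600 CPM. The part of these cell type shifts in the response of the 40 genes was not tested.

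Upstream sequences were examined because the genes moved together and most are textbook E2F targets. The RefSeq promoter table (GRCm38.p6) held entries for 32 of the 40 genes, with 38 start sites in all. The 250 bases before each start were searched on both strands for the 4 versions of the E2F motif TTTCCCGC, TTTCGCGC, TTTGCCGC and TTTGGCGC. A match was found for 8 of the 32 genes, or 25%, and for 583 of the 27025 genes in the table, or 2.16%. Without the first T, 14 of the 32 genes (43.8%) and 9.01% of all genes held a match, a search that contains the first. CCAAT, the letters bound by NF-Y, was present for 18 of the 32 (56.2%) and 37.5% of all. A match is a description of letters and not of a bound site, and no match says only that these letters are not in the window. None of the 5 genes followed throughout held the longer motif. The stretches around the match, on the gene's strand, are given for the 4 genes whose stretch overlaps no annotated exon, in the order of their change at day 10, as examples of a match. Capitals mark the motif on either strand.
Pola1 (chrX:93632246-93632333, minus strand): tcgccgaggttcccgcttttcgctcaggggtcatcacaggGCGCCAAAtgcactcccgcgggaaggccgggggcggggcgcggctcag
Uhrf1 (chr17:56304088-56304175, plus strand, the downstream one of its starts): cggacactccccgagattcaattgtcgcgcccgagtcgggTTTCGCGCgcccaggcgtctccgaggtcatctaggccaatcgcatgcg
Mcm6 (chr1:128359706-128359855, minus strand): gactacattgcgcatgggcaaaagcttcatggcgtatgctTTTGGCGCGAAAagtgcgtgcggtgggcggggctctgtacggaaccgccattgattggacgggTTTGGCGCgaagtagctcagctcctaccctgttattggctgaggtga
Mcm5 (chr8:75109316-75109407, plus strand): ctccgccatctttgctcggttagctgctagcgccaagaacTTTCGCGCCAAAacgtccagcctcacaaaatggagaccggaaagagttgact
The helicase genes Mcm5 and Mcm6 both held 12 bases in which a motif on one strand overlaps a motif on the other, and Mcm6 held a further match downstream. At day 10 the log2 fold changes of the 4 genes were -0.97 for Pola1, -0.81 for Uhrf1, -0.71 for Mcm6 and -0.50 for Mcm5.

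To determine whether either kinase alone had this effect, the 5 organoid lines were compared at day 7 after 4-OHT. With loss of CDK8 alone, against VillinCreERT2, 3 of the 40 genes were called higher, against 2.9% of all genes, and none lower. By adjusted p alone 35 genes were higher, against 15.7% of all genes, and the 40 log2 fold changes had their median at 0.35. Pold1, the catalytic subunit of polymerase delta, read 59.6, 56.9 and 57.2 CPM in CDK8iIEC-KO and 38.8, 34.6 and 38.0 CPM in VillinCreERT2 (log2 fold change 0.64 ± 0.06, adjusted p = 2.37e-08). Gins2 read 13.4, 13.4 and 14.1 CPM against 9.49, 9.16 and 8.30 CPM (0.60 ± 0.10, adjusted p = 2.97e-05). Gins1 read 9.41, 10.1 and 9.47 CPM against 6.36, 5.61 and 7.3 CPM (0.59 ± 0.11, adjusted p = 0.000214). All 3 lay above VillinCreERT2 in every library. Against C57BL/6, Gins2 (12.8 to 14.6 CPM) and Gins1 (9.43 to 10.6 CPM) overlapped, and Pold1 (64.2 to 68.6 CPM) was lower in every CDK8iIEC-KO library. Summed enterocyte markers were 9700 to 11200 CPM in CDK8iIEC-KO and 14100 to 17000 CPM in VillinCreERT2, and their part in these changes was not tested.

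Between C57BL/6 and VillinCreERT2 organoids, 4 of the 40 were called higher in C57BL/6, against 15.5% of all genes, and 1, E2f2, lower, and the median over the 40 was 0.25. With no fold change cutoff 29 of the 40 differed in either direction, as did 9276 of all 15125 genes, and 6 of 8 Paneth cell markers were called higher in C57BL/6. Without replicate 2 of VillinCreERT2, 3 genes differed by both cutoffs. With C57BL/6 as the control for CDK8iIEC-KO, a choice made after the data were seen, none of the 40 passed both cutoffs and the median was 0.10, with 29 of the 40 above 0. With no fold change cutoff 13 were higher, among them Ccne1 (0.58), E2f2 (0.54) and Mcm4 (0.41), and 3 were lower, among them Pold1 (-0.20). The share of all genes past that threshold was not taken for this comparison, so these counts cannot be read against it. The calls against VillinCreERT2 were thus not made against C57BL/6, and line and genotype cannot be told apart.

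Loss of CDK19 alone, compared with C57BL/6, changed 0 of the 40 genes by both cutoffs in edgeR, and likewise in DESeq2 and limma-voom, against 5.25% of all genes in either direction. At an unadjusted p under 0.05, 15 differed, a count for which the share of all genes was not taken. By adjusted p alone 6 were lower, against 7.8% of all genes, and 1 higher. Pold1 had the lowest adjusted p and read 55.8, 59.1 and 53.4 CPM in Cdk8 fl/fl/Cdk19-/- and 64.2, 66.2 and 68.6 CPM in C57BL/6 (log2 fold change -0.24 ± 0.06, adjusted p = 0.00799). Dut, the dUTPase, read 51.6, 49.8 and 52.8 CPM against 61.4, 60.2 and 70.7 CPM (-0.32 ± 0.08, adjusted p = 0.00809). Both genes were lower in every library, by less than the fold change cutoff. Mcm2 had a log2 fold change of -0.14, Pcna of -0.10, Rrm2 of -0.16, Ccne1 of 0.10 and E2f1 of -0.26, and none of these passed the adjusted p threshold.

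With combined loss, against VillinCreERT2, 1 of the 40 genes was called lower, against 7.95% of all genes. That gene was E2f1, which read 11.3, 10.4 and 12 CPM in CDK8iIEC-KO/Cdk19-/- and 18.5, 15.4 and 17.5 CPM in VillinCreERT2 (log2 fold change -0.60 ± 0.10, adjusted p = 1.2e-05). By adjusted p alone 20 genes were lower, against 27.1% of all genes (median log2 fold change -0.17). Summed stem cell markers were 810 to 1080 CPM against 1830 to 2160 CPM, with 8 of 9 tested called lower, and Paneth cell markers 860 to 897 CPM against 2800 to 2910 CPM, with 7 of 8 lower, and their part was not tested. All 8 licensing genes and all 4 E-type cyclin and E2F genes were among the 20, and none of the clamp and clamp loader genes was. Mcm2 read 59.2, 60.7 and 67.2 CPM against 85.5, 76.0 and 84.0 CPM (-0.39 ± 0.06, adjusted p = 9.36e-06) and Ccne1 10.5, 12.1 and 14.4 CPM against 16.3, 16.3 and 16.9 CPM (-0.42 ± 0.10, adjusted p = 0.000691). Both were lower in every library, whereas Rrm2 overlapped (52.3 to 64.2 against 55.7 to 66.6 CPM) and Pcna differed by 0.05 ± 0.05. No gene was called without replicate 2 of CDK8iIEC-KO/Cdk19-/-, and 2 were without replicate 1 or 3 of that line or replicate 2 of VillinCreERT2. The time course compared 4-OHT with EtOH in a line labelled Cdk19-/- in both arms, with Cre activated in the 4-OHT arm only. The present comparison was of different lines after 4-OHT, both with Cre, so the sizes of their changes are given side by side only.

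The lines labelled with loss of 1 kinase were compared with the line labelled with loss of both. Against CDK8iIEC-KO, 18 of the 40 genes were lower with combined loss, against 8.65% of all genes, and in all 40 every CDK8iIEC-KO/Cdk19-/- library lay below every CDK8iIEC-KO library, where 31.2% of all genes were so separated. Of the markers, 8 of 9 of stem cells and 7 of 8 of Paneth cells were called lower and 5 of 10 of enterocytes higher, and their part was not tested. Uhrf1 differed most (log2 fold change -0.97 ± 0.07, adjusted p = 1.81e-11), followed by Cdt1, the licensing factor (-0.88 ± 0.06, adjusted p = 1.95e-11). The log2 fold change was -0.76 for Mcm2, -0.81 for E2f1, -0.71 for Ccne1 and -0.62 for Rrm2, all 4 called, and -0.14 for Pcna, which was not. Against Cdk8 fl/fl/Cdk19-/-, 1 gene was lower, against 4.26% of all genes. It was Cdc6, the licensing ATPase (-0.65 ± 0.09, adjusted p = 2.1e-06), and the median over the 40 was -0.36. In 36 of the 40 every CDK8iIEC-KO/Cdk19-/- library lay lower, where 24% of all genes were so separated. Stem cell markers were called lower for 5 of 9, Paneth cell markers for 8 of 8, and enterocyte markers higher for 5 of 10 and lower for 1, and their part was not tested. No gene was called without replicate 1 of CDK8iIEC-KO/Cdk19-/-, and 2 were without its replicate 2 or 3 or replicate 1 of Cdk8 fl/fl/Cdk19-/-.

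Set against the sum of the single losses, each measured from its own control line, the combined loss was lower for 12 of the 40 genes, against 8.34% of all genes. VillinCreERT2 is the control of both the combined loss and the loss of CDK8 and cancels, so this contrast rests on C57BL/6, without Cre, as its only control line. The difference was -0.95 ± 0.10 for Uhrf1 (adjusted p = 2.93e-08), -0.90 ± 0.09 for Mcm4 (adjusted p = 3.42e-08) and -0.84 ± 0.13 for Ccne2 (adjusted p = 1.86e-05). It was -0.80 for Ccne1 and -0.62 for Mcm2, while Pcna stood at -0.05 (adjusted p = 0.624). With the mean of both control lines in place of each line's own, that mean takes the place of C57BL/6, and 26 genes differed. Between the control lines, the median over the 40 was 0.25 for C57BL/6 against VillinCreERT2. In the same contrast 6 of 8 Paneth cell markers were lower, 4 of 9 stem cell markers lower and 1 higher, and 6 of 10 enterocyte markers higher, and their part was not tested. The single and combined losses share control libraries, so their values are not independent of each other.

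**Figure D3:**
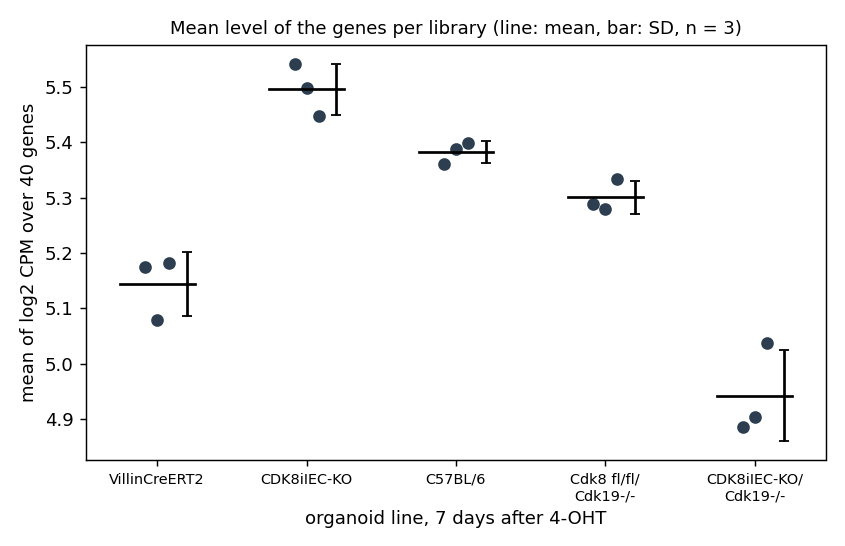
Mean of the log2 CPM of the 40 genes in each library (dots) of the 5 organoid lines 7 days after 4-OHT, with the mean (line) and SD (bar) of 3 libraries; the vertical axis does not start at 0. CDK8iIEC-KO/Cdk19-/- libraries lie lowest, and the C57BL/6 control lies closer to CDK8iIEC-KO than to VillinCreERT2.

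Wnt ligand sustains crypt proliferation, and the response was compared between standard medium and Wnt3-CM. In Wnt3-CM at day 10, 4 of the 40 genes were called higher with 4-OHT, against 9.45% of all genes, and none lower. By adjusted p alone 28 were higher, against 24.3% of all genes, and the median log2 fold change was 0.32. Gins2 read 11.6, 16.0 and 17.1 CPM with 4-OHT and 7.94, 6.45 and 9.01 CPM with EtOH (0.94 ± 0.15, adjusted p = 6.75e-05). Gins3 read 4.57, 4.81 and 5.47 CPM against 3.58, 3.20 and 2.74 CPM (0.64 ± 0.17, adjusted p = 0.00338). E2f2 read 86.3, 85.8 and 70.1 CPM against 59.3, 50.4 and 49.2 CPM (0.61 ± 0.09, adjusted p = 1.67e-05). These 3 genes and Tk1, thymidine kinase (0.59 ± 0.08, adjusted p = 1.82e-06), did not overlap between the arms, and 2 genes were called without EtOH replicate 2 or 3. The 5 genes followed throughout showed no call: Mcm2 had a log2 fold change of 0.09 (80.9, 90.2 and 86.5 against 82.6, 77.3 and 82.2 CPM), Rrm2 of 0.12, Ccne1 of 0.12 and E2f1 of 0.12, and Pcna rose by 0.33 (adjusted p = 0.000277), under the cutoff.

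The response at day 10 differed between the media. In a joint fit, 30 of the 40 genes responded more positively in Wnt3-CM than in standard medium, against 7.11% of all genes, and none more negatively. The difference was 1.3 ± 0.22 for Gins2 (adjusted p = 0.000244), 1.23 ± 0.13 for Cdc6 (adjusted p = 9.13e-07) and 1.14 ± 0.09 for Lig1, the replicative DNA ligase (adjusted p = 3.7e-08). It was 0.83 for Mcm2, 0.82 for E2f1, 0.71 for Rrm2 and 0.61 for Ccne1, and 0.33 for Pcna, short of the fold change cutoff. All 8 licensing genes and all 6 polymerase and primase genes were called, and none of the 5 clamp and clamp loader genes. By adjusted p alone all 5 of the latter were higher (median 0.45), where 29% of all genes passed in either direction.

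Levels on the joint scale show where this difference lay. The mean log2 CPM of the 40 genes was 5.62 to 5.71 with EtOH in standard medium, but 4.80 to 4.85 with EtOH in Wnt3-CM. With 4-OHT it was 5.11 to 5.22 in standard medium and 5.05 to 5.18 in Wnt3-CM. Vehicle-treated organoids were lower in Wnt3-CM for all 40 genes, each without overlap, where 31.6% of all genes were lower without overlap, and the median log2 ratio was -0.84. With 4-OHT, 18 genes were higher and 22 lower in Wnt3-CM, and the median log2 ratio was -0.03. Mcm2 read 139, 146 and 151 CPM with EtOH in standard medium, and 85.7, 87.2 and 85.8 CPM with 4-OHT. In Wnt3-CM it read 84.2, 78.4 and 83.0 CPM with EtOH and 81.3, 90.5 and 87.6 CPM with 4-OHT. The 2 media come from separate count tables, so medium and table cannot be told apart in these levels, and the test above compares responses within each table.

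**Figure D4:**
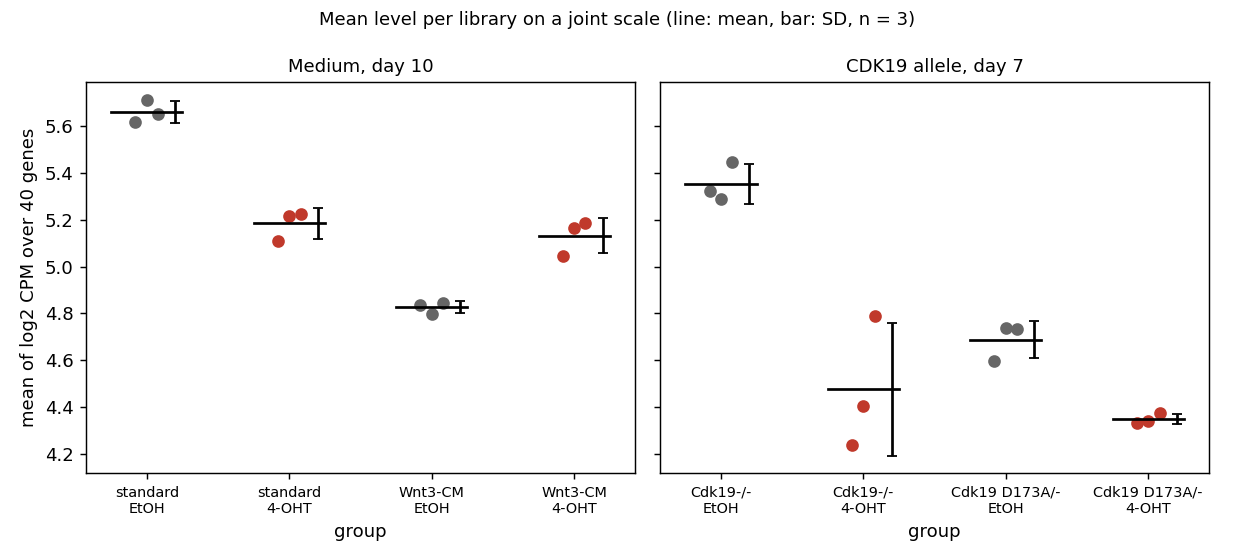
Mean of the log2 CPM of the 40 genes per library (dots; gray EtOH, red 4-OHT) after joint scaling, for standard medium and Wnt3-CM at day 10 (left) and for the Cdk19-/- and Cdk19 D173A/- lines at day 7 (right), with mean (line) and SD (bar) of 3 libraries; the vertical axis does not start at 0. The EtOH groups differ more between media and between lines than the 4-OHT groups do.

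The other replication factors moved likewise in the comparison of media, with 25 of 47 called higher and 1, Pold4, lower, as did 20 of 21 mitosis genes. Cdc7, the kinase that activates the loaded helicase, had a difference of 1.54, and Mki67 one of 1.35. Summed Paneth cell markers were lower with 4-OHT in both media, at 2190 to 2600 CPM against 8240 to 8480 CPM with EtOH in standard medium and 1900 to 2340 CPM against 6880 to 7620 CPM in Wnt3-CM. Stem cell markers were 3990 to 4340 CPM with EtOH and 2240 to 2420 CPM with 4-OHT in standard medium, and 1830 to 1980 CPM and 1800 to 2040 CPM in Wnt3-CM, where 4 of 10 stem cell markers were nevertheless called lower and none higher. Of 10 enterocyte markers 6 were called higher with 4-OHT in Wnt3-CM, and in the comparison of media 6 were called higher and 1 lower. In that comparison 4 of 10 stem cell markers were called higher and 4 of 10 epithelial markers lower. With EtOH, summed epithelial markers were 13900 to 14500 CPM in Wnt3-CM and 8880 to 9240 CPM in standard medium. The part of these markers in the response of the 40 genes was not tested.

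Kinase-dead CDK19 was used to ask whether the protein without its activity stands in for CDK19. In the Cdk19 D173A/- line, whose columns were assigned by elimination, 2 of the 40 genes were called lower 7 days after 4-OHT, against 6.25% of all genes, and none higher. By adjusted p alone 27 were lower, against 13.7% of all genes (median log2 fold change -0.35). With 4-OHT, summed stem cell markers were 762 to 1010 CPM against 1300 to 1390 CPM with EtOH, Paneth cell markers 1720 to 2050 against 3400 to 3620 CPM and enterocyte markers 21500 to 24600 against 16300 to 17800 CPM, and their part was not tested. E2f1 read 6.67, 7.55 and 7.98 CPM with 4-OHT and 10.9, 13.1 and 12.5 CPM with EtOH (log2 fold change -0.72 ± 0.12, adjusted p = 0.00172). Pola1 read 10.8, 12.4 and 11.3 CPM against 14.8, 18.1 and 19.7 CPM (-0.61 ± 0.12, adjusted p = 0.00415). Both genes were separated between the arms, and the count reached 6 without EtOH replicate 1 and 4 without 4-OHT replicate 2. Mcm2 read 42.7, 39.1 and 42.4 CPM against 52.9, 59.5 and 58.0 CPM (-0.46 ± 0.07, adjusted p = 0.00126), Rrm2 had a log2 fold change of -0.35 and Ccne1 of -0.24, and Pcna stood at 0.10 (adjusted p = 0.496).

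The day 7 response was less negative in the kinase-dead line than in the CDK19-null line for 15 of the 40 genes, against 4.9% of all genes. The difference was 0.86 ± 0.29 for Gins1 (adjusted p = 0.0462), 0.85 ± 0.21 for Cdc45 (adjusted p = 0.00926), 0.82 ± 0.20 for Ccne1 (adjusted p = 0.00999) and 0.70 ± 0.22 for Rrm2 (adjusted p = 0.0397). For E2f1 it was 0.34 (adjusted p = 0.306) and for Mcm2 0.48 (adjusted p = 0.0774). This count was 6 under upper quartile normalization and moved with single libraries: it was 3 without 4-OHT replicate 1 of the null line and 26 without 4-OHT replicate 3, 5 to 7 without 4-OHT replicate 2 or EtOH replicate 2 or 3 of that line, and 6 to 9 without any 1 library of the kinase-dead line. With EtOH, all 40 genes had lower means in the kinase-dead line than in the null line, 35 of them without overlap, where 32% of all genes were lower without overlap, and the median log2 ratio was -0.68. With 4-OHT the median log2 ratio was -0.16. Line and table cannot be told apart in these levels. In the difference of responses, 4 of 10 enterocyte markers were called higher. Of 8 Paneth cell markers 2 were higher and 2 lower, and of 10 stem cell markers 1 was higher and 1 lower, and the part of all these markers was not tested.

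In IECs no gene passed both cutoffs in edgeR, against 1.5% of all genes in either direction, and none passed the adjusted p threshold in edgeR. DESeq2 and limma-voom also gave 0 calls, and edgeR with no filter on low counts gave 1. At an unadjusted p under 0.05 there were 8 genes, a count for which the share of all genes was not taken. Of the 40 fitted values 37 lay below 0 (median -0.31), where 49.3% of all genes did. In 10 of the 40, every CDK8iIEC-KO/Cdk19-/- library lay below every VillinCreERT2 library, where 14.6% of all genes did. Cdt1 read 21.2, 26.6 and 23.1 CPM in CDK8iIEC-KO/Cdk19-/- and 32.0, 31.1 and 34.8 CPM in VillinCreERT2 (log2 fold change -0.47 ± 0.11, adjusted p = 0.104). Ccne2 read 3.70, 4.53 and 2.5 CPM against 6.42, 6.25 and 6.05 CPM (-0.80 ± 0.24, adjusted p = 0.151). These 2 genes had the lowest adjusted p and were separated between the groups. Mcm2 overlapped, at 25.9, 35.1 and 18.6 CPM against 30.0, 32.1 and 39.9 CPM (-0.36 ± 0.24, adjusted p = 0.426). The log2 fold change of Rrm2 was -0.41 ± 0.13 (adjusted p = 0.166), that of E2f1 -0.30 ± 0.19, that of Ccne1 -0.26 ± 0.26 and that of Pcna -0.07 ± 0.08.

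**Figure D5:**
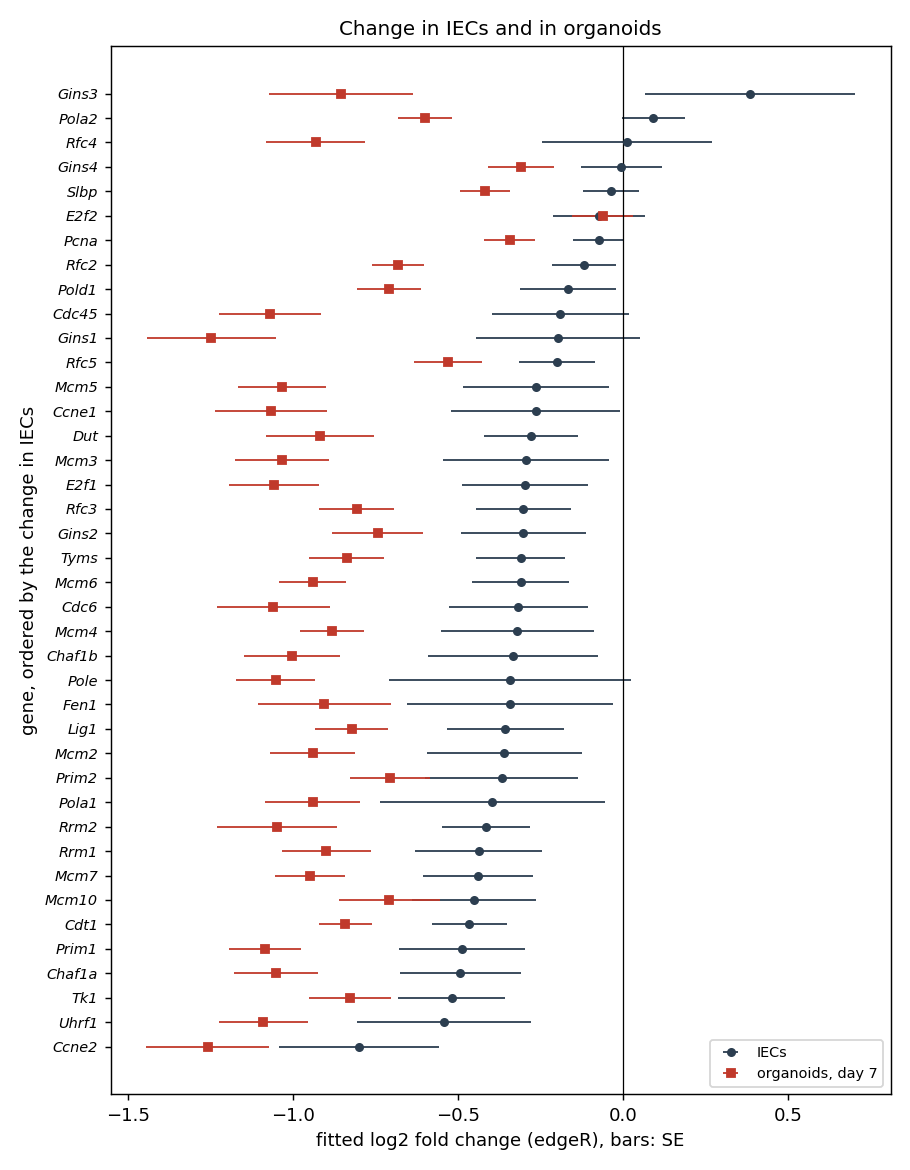
Fitted log2 fold changes (bars: SE) of the 40 genes in IECs (CDK8iIEC-KO/Cdk19-/- against VillinCreERT2, dark circles) and in organoids at day 7 (4-OHT against EtOH, red squares), ordered by the value in IECs. In IECs 37 of 40 points lie below 0 and none passed the adjusted p threshold, while in organoids all 40 lie below 0.

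The IEC libraries differed in markers of cells other than epithelium. Summed immune markers were 2290, 1310 and 1150 CPM in CDK8iIEC-KO/Cdk19-/- and 181, 977 and 234 CPM in VillinCreERT2. Mesenchyme markers were 1010, 621 and 476 CPM against 15.0, 904 and 58.8 CPM, and Paneth cell markers 997 to 2200 CPM against 3890 to 6420 CPM. Stem cell markers were 434 to 730 CPM against 978 to 1360 CPM, and pancreas markers 16.2 to 98 CPM against 4.28 to 13 CPM, both without overlap. Without the VillinCreERT2 library highest in immune and mesenchyme markers, a choice made after the data were seen, 0 genes were called and the median log2 fold change was -0.36. Without replicate 2 of CDK8iIEC-KO/Cdk19-/-, 4 genes were called lower: Mcm4, a helicase subunit, Rrm1, the large subunit of ribonucleotide reductase, Tk1 and Chaf1a, of CAF-1, all named after their values were seen. The share of all genes called was not taken for that fit, so this count cannot be read against it. Of the mitosis genes 1 of 21 was called lower in IECs, against 0.856% of all genes. It was Birc5, survivin (-0.92 ± 0.10, adjusted p = 0.0179), and the median log2 fold change over the 21 was -0.65. The part of other cell types in these values was not tested.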

How the data were processed

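Raw counts of reads per gene, deposited by the authors without normalization, were taken from 4 tables. Libraries were poly-A selected and read from both ends at 100 bp per the labels, and the submitters' processing notes name STAR 2.5.2, featureCounts, Subread 1.6.3 and mm10. Strandedness is not given in the sources used here, so overlapping genes cannot be separated. Columns of the Cdk19 D173A/- organoids were assigned by elimination and those of Wnt3-CM by group name, and 6 IEC columns with an unexplained suffix were not used. The 40 genes and the other lists were chosen with earlier results of these data known.

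Counts were fitted with edgeR 4.0.16 in R 4.3.3 (filterByExpr, TMM, robust dispersions, quasi-likelihood F test, Benjamini-Hochberg adjustment): the 5 lines together (15125 genes), the time course together (15447), and Wnt3-CM, Cdk19 D173A/- and IEC libraries as pairs, with joint fits of 12 libraries for differences of responses. Standard errors are the log2 fold change over the root of F. CPM values use TMM-scaled library sizes. The pipeline was tested on simulated data with known changes. In each main comparison per-library values are given for the 3 largest rises and falls past both cutoffs, or, where none passed, for the 2 lowest adjusted p, and Mcm2, Pcna, Rrm2, Ccne1 and E2f1 are followed throughout. Promoter stretches are printed for up to 4 genes with the longer motif and no annotated exon in the stretch, by change at day 10. Alternatives were DESeq2 1.42.0, limma-voom (limma 3.58.1), upper quartile factors, no filter or a minimum of 10 counts per library, a replicate block, a fit of the compared groups alone, the mean of both control lines, no fold change cutoff and leaving out each library. A further 3 were added after seeing the data.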

Additional observations from a re-analysis of the deposited data

Results flagged for a closer look

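Differences between the responses of 2 groups, tested as contrasts in edgeR with adjusted p under 0.05 and a difference over 1.5-fold, stood out for 12 of the 40 genes between combined loss and the sum of single losses, 33 between days 5 and 3, 6 between days 10 and 7, 26 between days 10 and 3, 30 between Wnt3-CM and standard medium and 15 between kinase-dead and null CDK19. Among the genes followed throughout, Mcm2 (-0.62) and Ccne1 (-0.80) differed on the log2 scale between combined loss and the sum. Between days 5 and 3, Mcm2 (-1.07), Pcna (-0.85), Rrm2 (-1.19), Ccne1 (-1.10) and E2f1 (-1.24) differed. Between days 10 and 3, Mcm2 (-1.09), Rrm2 (-0.81), Ccne1 (-0.87) and E2f1 (-1.06) did. Between the media, Mcm2 (0.83), Rrm2 (0.71), Ccne1 (0.61) and E2f1 (0.82) differed, and between the CDK19 alleles Rrm2 (0.70) and Ccne1 (0.82). Several of these contrasts share libraries and are not independent of each other.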

How the results depend on the processing

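Without the fold change cutoff, in either direction, with the share of all genes in parentheses, the counts became 36 for CDK8 loss (30.3%), 7 for CDK19 loss (15.5%), 20 for combined loss (52.9%), 35 against the sum (43.1%), 38 (54.7%) and 33 (34.6%) against CDK8 and CDK19 loss, 29 between control lines (61.3%), 19 at day 3 (34.4%), 27 at day 10 (44.3%), 1 between days 7 and 5 (18.9%), 11 between days 10 and 7 (16.8%), 30 for vehicle (67.2%), 28 in Wnt3-CM (48.2%) and 27 with kinase-dead CDK19 (27.8%). The mean of both control lines gave 3 for combined loss and 26 against the sum. Upper quartile normalization gave 0 for combined loss, 4 at day 3, 5 with kinase-dead CDK19 and 6 against the null line. No filter gave 2 for combined loss, 1 between days 7 and 5, 4 with kinase-dead CDK19 and 1 in IECs, and DESeq2 gave 4 with kinase-dead CDK19. With C57BL/6 as the control for CDK8 loss, added after seeing the data, 0 were called and Pcna turned to -0.03. The cause of these moves was not tested beyond what each setting changes. Apart from the counts without the fold change cutoff, shares of all genes called were not taken for these settings or for fits with 1 library left out. With 1 library left out, counts ran from 2 to 4 for CDK8 loss, 0 to 0 for CDK19 loss, 0 to 2 for combined loss, 10 to 16 against the sum, 16 to 21 and 0 to 2 against CDK8 and CDK19 loss, and 3 to 5 between control lines. They ran from 1 to 3 at day 3, 17 to 33 at day 5, 33 to 36 at day 7, 13 to 17 at day 10, 29 to 36 between days 5 and 3, 0 to 6 between days 7 and 5, 2 to 20 between days 10 and 7, 24 to 27 between days 10 and 3 and 15 to 18 for vehicle. They ran from 2 to 4 in Wnt3-CM, 28 to 32 between the media, 2 to 6 with kinase-dead CDK19, 3 to 26 between CDK19 alleles and 0 to 4 in IECs. Deviations of equal replicate numbers were not steadily correlated: the lowest of the 3 correlations per comparison was -0.41 to 0.044. The highest were 0.232 at day 10, 0.206 in IECs and 0.162 at day 7. A replicate block was therefore fitted as an alternative and not as a pairing by design. It moved the count between days 10 and 7 from 6 to 7 and left the other counts it was fitted for as they were. No replicate block was fitted for Wnt3-CM, kinase-dead CDK19 and the joint fits because the column numbers of Wnt3-CM and kinase-dead CDK19 are not tied to the labels. Of all genes called in IECs 43% were higher, but 39.1% with limma-voom, 49.2% with upper quartile factors, 58.7% with DESeq2, 59.5% with no filter, 75% with the replicate block and 84.4% without the VillinCreERT2 library highest in immune markers.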

Other observations

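Of the other G1/S regulators, 4 of 27 tested were called lower with combined loss (7.95% of all genes), 7 of 27 at day 10 (6.92%), 6 of 28 in Wnt3-CM (7.42%), where 1 was higher, and 4 of 28 with kinase-dead CDK19 (6.25%). The genes named here were chosen after their values were seen. Myc, a driver of entry into the cycle, had a log2 fold change of -0.73 at day 5, -0.91 at day 7 and -1.13 at day 10, and fell in Wnt3-CM as well (-0.80 ± 0.07, adjusted p = 4.7e-09), with combined loss (-0.97) and with kinase-dead CDK19 (-0.74). The difference of the Myc responses between the media was 0.33 ± 0.10 (adjusted p = 0.0129), under the fold change cutoff. Ccnd1 and Ccnd2, D-type cyclins, fell with combined loss (-0.96 and -0.69) and at day 10 (-0.63 and -0.69), and in Wnt3-CM had log2 fold changes of -0.12 and -0.28.

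In Wnt3-CM, Cdkn1a, the p21 inhibitor, fell by 1.12 on the log2 scale (adjusted p = 4.75e-10) and Cdkn2b, the p15 inhibitor, by 0.90 (adjusted p = 2.94e-10), and both responses differed from those in standard medium (-1.10 and -1.26). The other inhibitors Cdkn1b, Cdkn1c, Cdkn2c and Cdkn2d were not called in Wnt3-CM, with log2 fold changes of -0.02, -0.32, 0.14 and 0.27. Cdkn2a was called lower (-2.39) at 3, 5 and 4 counts with 4-OHT and 11, 16 and 33 with EtOH. At day 10 in standard medium the Cdkn1a and Cdkn2b log2 fold changes were -0.03 and 0.35. Mybl2, an E2F target and activator of mitotic genes, rose in Wnt3-CM (0.63) and fell at day 10 in standard medium (-0.74).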
